A study of Mus musculus with 12 samples.

Results

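Unstimulated macrophages that lack p50 were compared with unstimulated macrophages that have it, on 4 of the 12 arrays of the series. The arrays measured RNA of mouse macrophages grown from bone marrow of the strain labelled 129-SvEv-Tac. Control cells were IL10-/-, so they lack the gene of interleukin 10 (IL-10), a cytokine that restrains macrophages. The other cells were p50-/-IL10-/-, so the knockout of Il10 is common to both groups, and no group with an intact Il10 gene entered this comparison. All cultures had 5 days in medium that held 10% serum and 30% supernatant of L cells, which supplies macrophage growth factor, and RNA was taken at the 4 h time point without any stimulus. The remaining 8 arrays came from the same genotypes given 1 ng/ml lipopolysaccharide (LPS), a bacterial cell wall component, alone or with 0.3 ng/ml IL-10. The comparison covered 12393 genes, each represented by its brightest probe set, judged by the mean of all 12 arrays. Each group held 2 arrays that the labels call biological replicates, so p-values reach no further than these samples. The spread behind them is pooled over all 6 groups and drawn toward that of other genes, so it is not that of the resting arrays alone.

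Nfkb1, the gene that p50-/- cells lack, codes for the precursor p105 and for p50, a DNA-binding subunit of the transcription factor NF-kB. p50 has no activation domain of its own: paired with RelA or c-Rel it takes part in activating genes, and as a homodimer it can occupy the same kappaB sites and hold genes down. In resting macrophages most NF-kB is kept in the cytoplasm by inhibitor proteins of the IkB family, to which p105 also belongs, and p50 homodimers are already in the nucleus. The knockout removes p50 and p105 together, and these cells cannot tell the loss of one from that of the other. Transcripts of Nfkb1 were not analysed here, and that the cells lack p50 is known from the labels alone. Il10 read 6.57 and 6.98 log2 in IL10-/- and 6.94 and 6.54 in p50-/-IL10-/- cells, and the place of its probes relative to the deletion is not stated in the labels, so this signal checks neither knockout.

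Levels are log2 values made by the authors with RMA, which gives all arrays a common distribution. A difference of 1 is a doubling. Arrays of a group correlated across genes at 0.992 to 0.997. Lower quartiles of the arrays were 5.49 to 5.60, and a group mean below the highest of them is called dim here, since folds against it are uncertain. Macrophage markers were present in both genotypes: Csf1r, the receptor for macrophage growth factor, read 13.60, 13.59, 13.65 and 13.53 on the 4 arrays, and 0 of 13 measured macrophage markers were called. The IL10-/- arrays stood further apart than the p50-/-IL10-/- arrays, with 75 genes at least 1 log2 apart against 7. Of those 75 genes, 66 read higher on IL10-/- array 1, and 23 of the 66 are interferon-stimulated genes.

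Loss of p50 went with a limited set of differences in resting cells. Of 12393 genes, 156 (1.26%) were higher and 162 (1.31%) lower in p50-/-IL10-/- cells, 318 together (2.57%), and 33 and 47 of them differed at least 2-fold. Calls were made in limma where the two-sided p, adjusted over all genes by Benjamini-Hochberg, was under 0.05, in a fit over all 12 arrays with a mean for each of 6 groups. At an unadjusted p under 0.05 there were 1713 genes. The median difference of all genes was -0.01 log2. Differences are given as p50-/-IL10-/- minus IL10-/-, with the standard error (SE), and n = 2 arrays per group. In all 318 called genes the arrays of the genotypes did not overlap, which also held, upward or downward, for 21.3% and 26.5% of all genes. With 2 arrays a group, the smallest two-sided p of an exact permutation test is 0.333, so such a test could call no gene. The calls rest on the limma model, whose spread is pooled over all 6 groups and drawn toward that of other genes. The count of 318 became 244 and 131 without IL10-/- arrays 1 and 2, and 151 and 101 without p50-/-IL10-/- arrays 1 and 2. Fitted on the 4 unstimulated arrays alone, 288 genes were called, 231 of them among the 318. In that fit 16 of 78 named calls ended (adjusted p 0.0502 to 0.121), those of Saa3, Acp5, Acod1, Gbp3, Slfn8, Tnf, Erap1, Cd180, Pparg, Zeb2, Mcm5, Ctse, Jun, Ier2, Bak1 and Cflar.

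**Figure D1:**
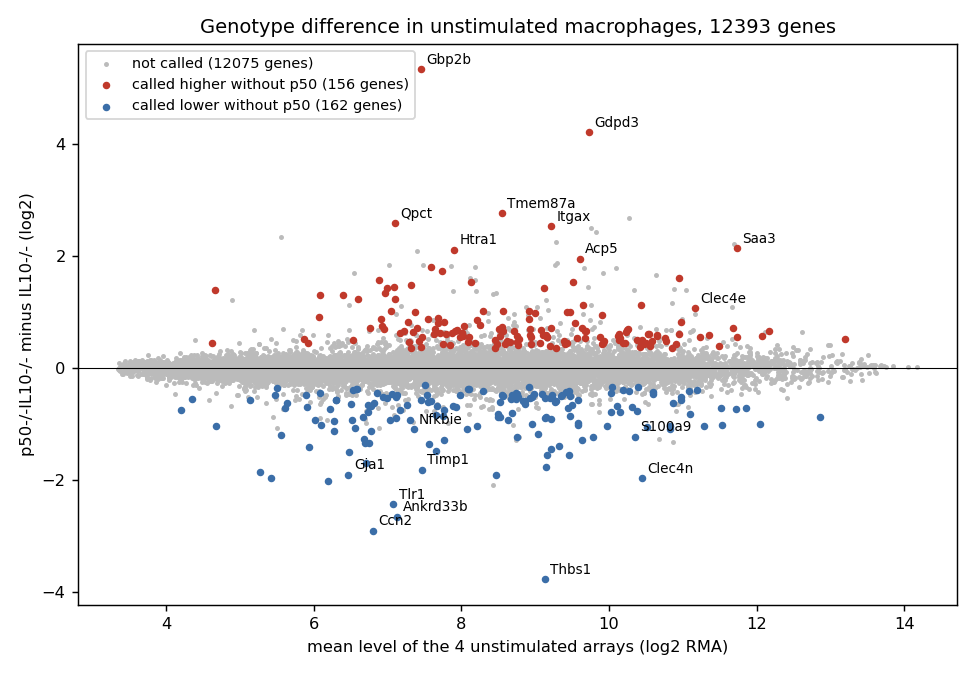
Difference between p50-/-IL10-/- and IL10-/- cells (log2, vertical axis) against the mean level of the 4 unstimulated arrays (log2 RMA, horizontal axis), 1 point per gene. Red points are the 156 genes called higher and blue points the 162 called lower without p50, and Gbp2b (5.34) and Thbs1 (-3.77) lie farthest from 0.

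The strongest increase was in Gbp2b (gene ID 14468), an interferon-inducible GTPase of the guanylate-binding protein family. It read 5.05 and 4.52 in IL10-/- cells and 10.14 and 10.11 without p50, an increase of 5.34 ± 0.21 (adjusted p 6.83e-07). The gene was dim in the controls and far above them on both arrays without p50, so the 40.5-fold size is uncertain. Gdpd3 (gene ID 68616), a lysophospholipase D, read 7.64 and 7.59 against 12.22 and 11.45, an 18.6-fold difference of 4.22 ± 0.34. Tmem87a (gene ID 211499), a membrane protein of the Golgi, read 7.21 and 7.12 against 9.87 and 9.98 (2.77 ± 0.11, 6.80-fold). In each of these genes the groups lay far apart, although the Gdpd3 arrays without p50 had an SD of 0.54 log2. Qpct (gene ID 70536), the glutaminyl cyclase that modifies the ends of peptides and chemokines, read 5.86 and 5.74 against 8.16 and 8.63 (2.60 ± 0.20). Itgax (gene ID 16411), the integrin subunit CD11c, read 7.49 and 8.40 against 10.65 and 10.31 (2.54 ± 0.35, adjusted p 0.00339). The control arrays of Itgax differed by nearly 1 log2, and both stayed well below the arrays without p50.

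Among the next of the 15 largest increases, Htra1, a secreted serine protease, was higher by 2.12 ± 0.13, from 7.01 and 6.66 to 8.89 and 9.02, and its other probe set was called in the same direction. Hp, which codes for the haemoglobin-binding protein haptoglobin, was higher by 1.74 ± 0.17. Fabp3, a fatty acid carrier, was higher by 1.55 ± 0.14, and Olfml3, a secreted olfactomedin-like protein, by 1.48 ± 0.14. Dpys, an enzyme of pyrimidine breakdown, was higher by 1.58 ± 0.20 on its brightest probe set, and 1 of its 2 other probe sets had the opposite sign.

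For a group of these genes the control arrays disagreed, which the SE, pooled over all 12 arrays, shows only in part. Saa3, an acute phase apolipoprotein that macrophages make, read 11.41 and 9.91 in IL10-/- cells and 12.86 and 12.74 without p50 (2.15 ± 0.34, adjusted p 0.00706). Acp5, the tartrate-resistant acid phosphatase of macrophages and osteoclasts, read 9.34 and 7.91 against 10.62 and 10.55 (1.96 ± 0.32). Acod1, which makes itaconate, read 10.73 and 9.55 against 11.69 and 11.81 (1.61 ± 0.27). In each, IL10-/- array 1 lay between array 2 and the arrays without p50, as it did for most interferon-stimulated genes below. Their calls ended without p50-/-IL10-/- array 1 (adjusted p 0.0634, 0.0724 and 0.0608) and without array 2 (0.0624, 0.0713 and 0.0956).

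**Figure D2:**
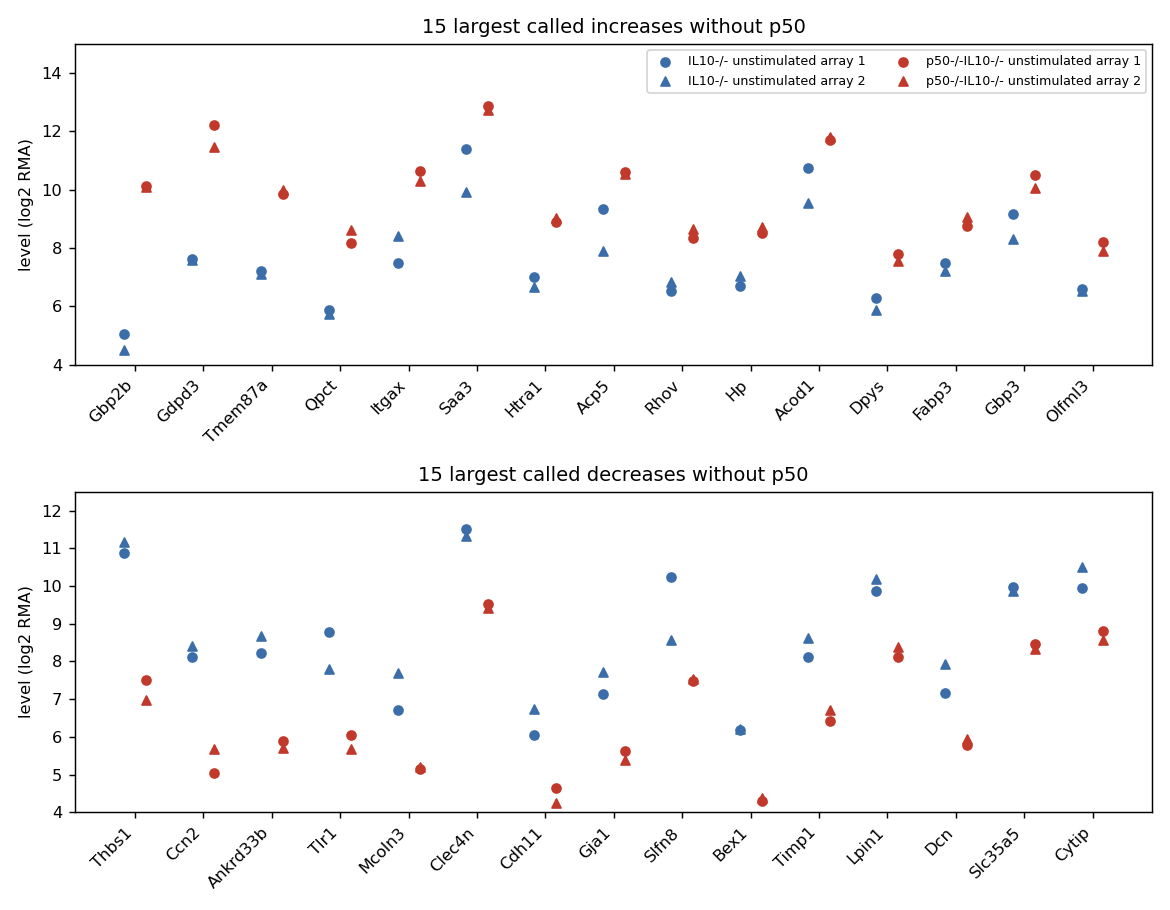
Level on each of the 4 unstimulated arrays (log2 RMA, vertical axis) for the 15 largest called increases (top) and 15 largest called decreases (bottom). Blue marks are IL10-/- and red marks p50-/-IL10-/- arrays, circles are array 1 and triangles array 2, and the genotypes do not overlap for any gene shown, although the IL10-/- marks of Saa3 (11.41 and 9.91) and Slfn8 (10.24 and 8.58) lie far apart.

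The strongest decrease was in Thbs1 (gene ID 21825), which codes for thrombospondin 1, a secreted matrix glycoprotein that can activate TGF-beta. It read 10.87 and 11.16 in IL10-/- cells and 7.52 and 6.97 without p50, a 13.7-fold difference of -3.77 ± 0.22 (adjusted p 1.08e-05), and its other probe set was called in the same direction. Ccn2 (gene ID 14219), connective tissue growth factor, read 8.12 and 8.40 against a dim 5.03 and 5.68 (-2.90 ± 0.21). Ankrd33b (gene ID 67434), a protein with ankyrin repeats, read 8.23 and 8.68 against 5.89 and 5.71 (-2.65 ± 0.14). These 3 genes kept their calls with any of the 4 arrays left out. Gja1, the gap junction protein connexin 43, read 7.13 and 7.71 against a dim 5.63 and 5.40 (-1.90 ± 0.21), with 3 of its other probe sets called the same way. Bex1, an X-linked adaptor protein, read 6.18 and 6.21 against a dim 4.31 and 4.37 (-1.85 ± 0.24). Slc35a5, of the nucleotide sugar transporter family, was lower (-1.54 ± 0.16), and so was Cytip, a regulator of leukocyte adhesion (-1.54 ± 0.20). The probe sets of Gja1 and Slc35a5 have names that mark shared probes, so they can take signal from related genes. Among the alternative fits their smallest differences were -1.10 and -0.87.

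Other genes of this group rested on less even arrays. Slfn8, of the schlafen family, read 10.24 and 8.58 against 7.49 and 7.54 (-1.90 ± 0.41, adjusted p 0.0383), and its call ended without IL10-/- array 1 (-1.07, adjusted p 0.0714) and without either p50-/-IL10-/- array (0.186 and 0.202). Mcoln3, an endolysosomal cation channel, read 6.70 and 7.70 against a dim 5.16 and 5.21 (-2.02 ± 0.32), and its call ended without IL10-/- array 2 (0.0553) and without p50-/-IL10-/- array 1 or 2 (0.0650 and 0.0676). Cdh11, a cadherin of mesenchymal cells, read 6.06 and 6.74 against a dim 4.64 and 4.25 (-1.96 ± 0.38). The call of Cdh11 ended without those same 3 arrays (0.192, 0.0811 and 0.194). Lpin1, a phosphatidate phosphatase, read 9.88 and 10.18 against 8.12 and 8.39 (-1.77 ± 0.25), and its call ended without p50-/-IL10-/- array 1 (0.0504).

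Pattern recognition receptors Tlr1 and Clec4n were among the 15 largest decreases. Tlr1 (gene ID 21897), the partner of TLR2 for bacterial lipopeptides, read 8.79 and 7.79 in IL10-/- cells and 6.04 and 5.68 without p50 (-2.43 ± 0.28, adjusted p 0.00157). Clec4n (gene ID 56620), the fungal mannan receptor dectin-2, read 11.52 and 11.33 against 9.51 and 9.42 (-1.96 ± 0.11). Clec4e (gene ID 56619), the receptor Mincle that lies in the same lectin cluster, went the other way, from 10.57 and 10.70 to 11.63 and 11.77 (1.07 ± 0.08, adjusted p 0.000111). The probe set of Clec4n has a name that marks shared probes, so it can take signal from related genes, and its other probe set was called lower too. Among 20 C-type lectins and scavenger receptors 1 was higher and 3 lower, with a median of 0.02, the others being the inhibitory lectin Clec4a2 (-0.76 ± 0.10) and the mannose receptor Mrc1 (-0.82 ± 0.17). The call of Mrc1 ended without IL10-/- array 1 or 2 and without p50-/-IL10-/- array 2 (adjusted p 0.104, 0.153 and 0.238). Among 16 Toll-like receptors and LPS co-receptors, Tlr1 was lower and Cd180, a relative of TLR4, higher (0.59 ± 0.12, with 3 of 4 calls lost when an array was left out, highest adjusted p 0.231).

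Of 12 measured NF-kB subunits and IkB proteins and kinases, 0 were higher and 2 lower (16.7% called, against 2.57% of all genes). A negative difference was found for 10, and 8 were lower without overlap of the arrays, as were 26.5% of all genes. The median was -0.19 against -0.01 for all genes. Nfkbie (gene ID 18037), which codes for the inhibitor IkB-epsilon, read 7.96 and 7.85 in IL10-/- cells and 6.97 and 6.65 without p50 (-1.09 ± 0.13, adjusted p 0.00161). Nfkb2 (gene ID 18034), the precursor of the subunit p52, read 9.28 and 9.07 against 8.51 and 8.57 (-0.63 ± 0.09, adjusted p 0.00411). Both calls were kept with any of the 4 arrays left out. The subunits Rela (-0.23 ± 0.07), Relb (-0.27 ± 0.10) and Rel (0.22 ± 0.17) did not pass the test. Neither did the inhibitors Nfkbia (-0.07 ± 0.07, with 1 of its 3 other probe sets called lower) and Nfkbib (0.00 ± 0.13), the nuclear IkB proteins Bcl3 (-0.26 ± 0.15) and Nfkbiz (0.21 ± 0.22), or the kinase genes Ikbkb (-0.15 ± 0.09), Ikbkg (-0.30 ± 0.10) and Ikbke (-0.04 ± 0.13). Of 16 feedback and TRAF genes 1 was lower and the median was 0.01. That gene was Birc3, the ubiquitin ligase cIAP2, at 10.51 and 10.37 against 9.73 and 9.81 (-0.67 ± 0.09), and neither its other probe set nor that of Nfkb2 was called.

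Of 35 inflammatory cytokine and chemokine genes 2 were higher and 5 lower, with a median of -0.13. The lower genes were chemokines and a growth factor. Ccl6, a myeloid chemokine, read 11.78 and 11.83 against 10.83 and 10.71 (-1.04 ± 0.08, adjusted p 7.88e-05), and its neighbour Ccl9 read 12.03 and 12.04 against 11.19 and 10.86 (-1.01 ± 0.15). Cxcl1 (gene ID 14825), a neutrophil attractant and NF-kB target, read 7.27 and 7.42 against 6.52 and 5.92 (-1.13 ± 0.26, adjusted p 0.0478). Its relative Cxcl2 was lower by a log2 difference of -0.61 ± 0.11 and Csf1, the macrophage growth factor gene, by -0.67 ± 0.13. Only the difference of Ccl6 among these 5 stayed called whichever array was left out, while Ccl9 lost its call without p50-/-IL10-/- array 2 (0.0676). Cxcl1 and Cxcl2 lost theirs in each of the 4 fits (highest adjusted p 0.345, without p50-/-IL10-/- array 2, and 0.107, without p50-/-IL10-/- array 1), and Csf1 in 3 (0.208, without IL10-/- array 2). Tnf, the central inflammatory cytokine, was higher by 0.53 ± 0.11 and the interleukin 1 antagonist Il1rn by 0.89 ± 0.16. Tnf lost its call in 3 fits (highest adjusted p 0.267, without IL10-/- array 2), as did Il1rn (0.146, without the same array). Il6 and Il12b were dim in both genotypes, and Il1b read 9.49 and 8.92 against 8.49 and 7.89 without passing the test (adjusted p 0.0761).

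Promoters of 3 of these genes are shown because p50 binds kappaB sites and the genes were lower without it: an NF-kB subunit, an NF-kB inhibitor and a chemokine. Each line gives the 250 bases before the start of the transcript, 5′ to 3′ on the gene's strand, from RefSeq on build GRCm38.p6. Capitals mark matches to the NF-kB (kappaB) consensus of 10 bases, searched on both strands, with overlapping matches run together. The Nfkbie promoter, chr17:45555450-45555699 on the plus strand, held 1 match that starts 106 bases before the start site. The first of 3 promoters of Nfkb2, chr19:46304487-46304736 on the plus strand, held 3, of which 2 overlap. The Cxcl1 promoter, chr5:90890995-90891244 on the plus strand, held 2 that overlap.
Nfkbie: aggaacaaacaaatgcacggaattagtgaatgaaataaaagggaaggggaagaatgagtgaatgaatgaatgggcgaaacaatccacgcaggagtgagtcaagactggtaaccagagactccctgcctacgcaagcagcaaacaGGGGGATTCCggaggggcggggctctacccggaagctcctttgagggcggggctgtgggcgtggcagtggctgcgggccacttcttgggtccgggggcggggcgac
Nfkb2: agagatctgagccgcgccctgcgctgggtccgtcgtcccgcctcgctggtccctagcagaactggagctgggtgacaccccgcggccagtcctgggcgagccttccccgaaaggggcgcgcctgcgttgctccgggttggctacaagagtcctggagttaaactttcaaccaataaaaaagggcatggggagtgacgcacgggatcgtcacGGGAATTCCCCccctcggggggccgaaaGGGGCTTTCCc
Cxcl1: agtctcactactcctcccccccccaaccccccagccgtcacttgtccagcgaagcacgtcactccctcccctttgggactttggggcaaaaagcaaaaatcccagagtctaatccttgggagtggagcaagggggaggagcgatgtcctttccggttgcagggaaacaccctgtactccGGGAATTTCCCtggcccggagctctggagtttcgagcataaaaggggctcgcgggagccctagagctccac

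Across the comparison, 8 of the 123 higher genes with a promoter in the RefSeq table held the same consensus in 300 bases around the start (6.50%). Among lower genes it was 22 of 128 (17.2%), and among all tested genes 1184 of 9887 (12.0%). For genes with a single promoter the shares were 5.43%, 15.4% and 9.69%. A match is a description of these letters, not of binding, and the shares were not tested against each other. Gbp2b and Saa3 had no match in this window, and neither did Birc3. Nfkbia, which did not pass the test, held a match that starts 29 bases before its start.

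Interferon-stimulated genes read higher without p50 on average, but hardly any passed the test. Of 45 measured genes 2 were higher and 0 lower (4.44% called, against 2.57% of all genes). A positive difference was nevertheless found for 44, and the median was 0.98 log2 against -0.01 for all genes. The mean of the list was 9.20 and 8.02 on the IL10-/- arrays and 9.86 and 9.58 on the p50-/-IL10-/- arrays. The genotypes did not overlap in that mean, but the IL10-/- arrays were further apart than IL10-/- array 1 was from either array without p50. All 45 genes read higher on IL10-/- array 1 than on array 2, by a median of 1.16, and the arrays without p50 differed by a median of 0.29. Without IL10-/- array 1 the median difference was 1.58 and 14 genes were higher. Without IL10-/- array 2 the median was 0.47 and 2 genes were higher, and without p50-/-IL10-/- array 1 a single gene was. The part of this array difference in the result was not tested.

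The called genes were a pair of guanylate-binding proteins, GTPases that attack vacuoles of intracellular microbes. Gbp7 (gene ID 229900) read 8.56 and 8.25 against 9.53 and 9.34 (1.03 ± 0.14, adjusted p 0.00339), and its other probe set was not called. Gbp3 (gene ID 55932) read 9.18 and 8.31 against 10.49 and 10.07 (1.54 ± 0.23), and its call ended without p50-/-IL10-/- array 1 (0.0628). Genes of larger size that did not pass, named after their values were seen, show the same split of the control arrays. Irf7, the regulator of interferon genes, read 10.01 and 7.85 against 11.76 and 11.47 (2.69 ± 0.73, adjusted p 0.0970). Oas3, an activator of antiviral RNase L, read 9.92 and 7.29 against 11.06 and 11.01 (2.43 ± 0.87, 0.218). Ifnb1 itself, the gene of interferon beta, read 6.04 and 6.00 against 5.77 and 5.92.

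Antigen loading genes for MHC class I, many of them interferon-responsive, had a positive difference in 14 of 14 cases with a median of 0.44. Of them 1 was called (7.14%, against 2.57% of all genes). That gene was the peptide trimming enzyme Erap1 (0.66 ± 0.13, adjusted p 0.0258), whose call ended in 3 of 4 fits with an array left out (highest adjusted p 0.226, without p50-/-IL10-/- array 2). The mean of this list was 10.72 and 10.25 on the IL10-/- arrays and 10.92 and 10.89 without p50, so IL10-/- array 2 again lay lowest. MHC class II genes had 0 calls among 12 and a median of 0.02.

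Markers of neutrophils and their granule precursors were lower as a group. Of 14 measured markers 7 were lower, 0 higher, and all 14 had a negative difference, with a median of -0.51. The mean of the list was 8.01 and 8.04 on the IL10-/- arrays and 7.46 and 7.43 without p50, so this list, unlike the interferon genes, was even within each genotype. S100a9 (gene ID 20202), a subunit of the neutrophil protein calprotectin, read 11.01 and 10.92 against 9.81 and 9.67 (-1.22 ± 0.08, adjusted p 3.22e-05). Its partner S100a8 (gene ID 20201), on a probe set with shared probes, read 11.47 and 11.26 against 10.28 and 10.28 (-1.08 ± 0.09). The granule protein Ngp read 10.53 and 10.44 against 9.51 and 9.41 (-1.03 ± 0.08). Both arrays without p50 lay about 1 log2 below both control arrays for these 3 genes. The iron-binding proteins Lcn2 (-1.08 ± 0.14) and Ltf (-0.82 ± 0.08), the antimicrobial peptide gene Camp (-0.69 ± 0.11) and myeloperoxidase Mpo (-0.56 ± 0.08) completed the 7. The call of Camp ended without p50-/-IL10-/- array 1 (0.0619) and array 2 (0.0596). The proteases Elane (-0.45 ± 0.14), Prtn3 (-0.41 ± 0.10) and Ctsg (-0.16 ± 0.10) did not pass the test. In such bulk samples, fewer cells of a type and less RNA per cell cannot be told apart.

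Stromal and matrix genes were lower as well. Of 32 measured genes 12 were lower and 0 higher (37.5% called, against 2.57% of all genes). A negative difference was found for 28, and the median was -0.38 against -0.01 for all genes. The mean of the list was 7.51 and 7.73 on the IL10-/- arrays and 6.95 and 6.95 without p50. Beside Thbs1 and Ccn2, the protease inhibitor Timp1 read 8.13 and 8.61 against 6.41 and 6.70 (-1.81 ± 0.19), and the smooth muscle protein gene Tagln 7.08 and 7.19 against 6.54 and 6.47 (-0.63 ± 0.08). Those 4 were called without IL10-/- array 2, which read highest for the list, and they were called with each of the other arrays left out. The other 8 lost their calls without IL10-/- array 2 and without at least 1 of the p50-/-IL10-/- arrays. They were the proteoglycans Dcn (-1.68 ± 0.35) and Bgn (-1.49 ± 0.27), the collagens Col5a2 (-1.33 ± 0.28) and Col6a1 (-0.67 ± 0.13), fibronectin Fn1 (-1.28 ± 0.19), Sparc (-0.90 ± 0.15), the collagen crosslinker Lox (-0.87 ± 0.16) and the smooth muscle actin Acta2 (-0.83 ± 0.13). Their highest adjusted p values were 0.242, 0.157, 0.233, 0.147, 0.0608, 0.121, 0.126 and 0.0676. The count of 12 became 13 and 4 without IL10-/- arrays 1 and 2, and 7 and 5 without p50-/-IL10-/- arrays 1 and 2. Among members without a call, the fibroblast receptor gene Pdgfra read 5.81 and 5.95 against 5.69 and 5.79, slightly above the limit for dim. The proteoglycan gene Lum read 4.09 and 4.20 against 4.18 and 4.00, dim in both genotypes, so that a decrease could not be seen for Lum. Of the 32 measured genes 2 were dim in both genotypes. Some genes of this list, such as Thbs1 and Fn1, are also made by macrophages, and which cells gave these signals was not tested.

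**Figure D3:**
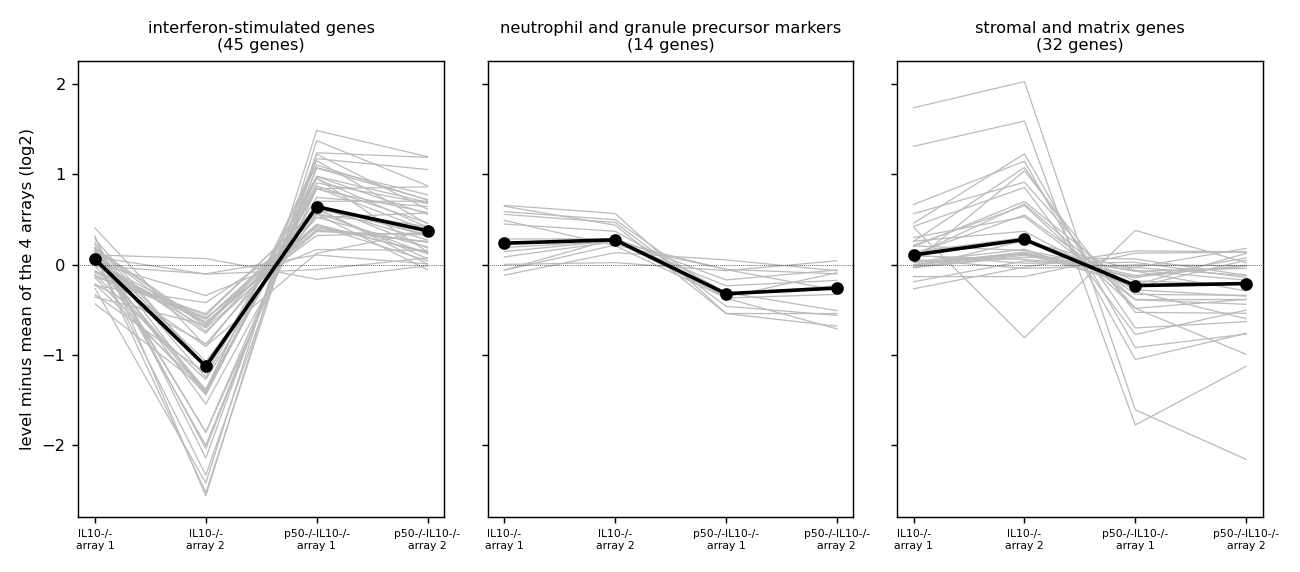
Level of each list member on each unstimulated array relative to its own mean over the 4 arrays (log2, vertical axis), as grey lines, with the median of the list in black. Interferon-stimulated genes are lowest on IL10-/- array 2 (list mean 8.02). IL10-/- array 1 (9.20) also lies below the p50-/-IL10-/- arrays (9.86 and 9.58). The 14 neutrophil markers and most of the 32 stromal genes are lower on both p50-/-IL10-/- arrays.

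Few markers of other blood cells were called. There were 0 calls among 10 B cell, 13 T and NK cell, and 10 mast cell and basophil markers. Of these, 2, 5 and 6 were dim in both genotypes, so that a decrease could not be seen there. With 2.57% of all genes called, 0 calls in lists of this size say little. Among 10 erythroid and megakaryocyte markers the platelet chemokine gene Ppbp was lower, at 6.01 and 6.29 against a dim 4.95 and 4.97 (-1.19 ± 0.14), and Pf4 was not called. Among 10 dendritic cell markers, 5 of them dim in both genotypes, Itgax was the only call. The dendritic cell factor Zbtb46 read 5.24 and 5.29 against 5.33 and 5.23, dim in both genotypes, and Flt3 read 7.18 and 7.32 against 7.24 and 7.19. Of 15 integrins, Itgax and the fibronectin receptor subunit Itga5 (0.59 ± 0.13, adjusted p 0.0448) were higher, but the call of Itga5 ended with any array left out (highest 0.276, without IL10-/- array 2).

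Transcription factors of the early response and of myeloid cells split. Of 31 myeloid factors 1 was higher and 3 lower (12.9% called, against 2.57% of all genes, median 0.02). The orphan receptor Nr4a1 read 9.61 and 9.31 in IL10-/- cells and 8.55 and 8.37 without p50 (-1.0 ± 0.11, adjusted p 0.00141). Cebpd, a factor of the acute phase response, read 9.59 and 9.76 against 8.85 and 8.67 (-0.91 ± 0.12), and its other probe set had the opposite sign without a call. Those 2 kept their calls with any array left out, and Zeb2 (-0.62 ± 0.11) and the lipid receptor Pparg (0.46 ± 0.08) did not (highest adjusted p 0.112, without IL10-/- array 2, and 0.120, without p50-/-IL10-/- array 1). Of 23 heat shock and immediate early genes 2 were higher and 3 lower (21.7% called, median -0.04). The AP-1 subunits went apart, with Jun higher (0.58 ± 0.13) and Fos lower (-1.05 ± 0.23, from 11.20 and 10.89 to 9.91 and 10.07). Ier3 (-0.78 ± 0.15) and Ier2 (-0.49 ± 0.11) were lower and the stress factor Atf3 higher (0.59 ± 0.11). Jun, Fos, Ier2 and Atf3 lost their calls in each of the 4 fits (highest adjusted p 0.331, 0.226, 0.250 and 0.174, without IL10-/- array 2, p50-/-IL10-/- array 1, p50-/-IL10-/- array 1 and p50-/-IL10-/- array 2), and Ier3 in 2 (0.195, without p50-/-IL10-/- array 2).

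Of 19 Bcl2 family and apoptosis genes 3 were higher and 2 lower (26.3% called, against 2.57% of all genes). The inflammatory protease Casp1 read 9.89 and 9.92 against 10.52 and 10.61 (0.66 ± 0.09), and the BH3-only gene Pmaip1 read 6.82 and 6.39 against a dim 5.59 and 5.59 (-1.01 ± 0.13). Both kept their calls with any array left out, as Birc3 did, whereas the pore-forming Bak1 (0.47 ± 0.09) and the caspase-8 regulator Cflar (0.43 ± 0.09) lost theirs in 3 and 4 of 4 fits (highest adjusted p 0.217, without IL10-/- array 2, and 0.227, without p50-/-IL10-/- array 2). Of 19 co-stimulation and adhesion genes 1 was higher and 2 lower (15.8% called). Cd86, a ligand of CD28, read 9.54 and 9.20 against 8.17 and 8.10 (-1.23 ± 0.17), and the maturation marker Cd83 read 11.27 and 11.43 against 10.31 and 10.32 (-1.03 ± 0.15). With the mean of both probe sets of Cd86 the adjusted p was 0.0867. Cd47, the signal that blocks engulfment, was higher by 0.57 ± 0.10, and its call ended with any array left out (highest 0.123, without p50-/-IL10-/- array 1).

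Of 20 prostaglandin, nitric oxide and arginine enzymes 3 were higher and 1 lower. Beside Acod1 these were Arg2, a mitochondrial arginase (0.73 ± 0.17, adjusted p 0.0485), and Gch1, which makes the cofactor of nitric oxide synthase (0.56 ± 0.09). Arg2 lost its call in 4 of 4 fits (highest adjusted p 0.315, without IL10-/- array 2) and Gch1 in 3 (0.112, without p50-/-IL10-/- array 2). Ptgs2, the inducible cyclooxygenase, was lower but dim in both genotypes (5.14 and 5.25 against 4.21 and 4.10, -1.04 ± 0.18), and its call ended in 3 of 4 fits (0.122, without p50-/-IL10-/- array 2) and with the mean of its probe sets (0.152).

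Cell cycle and DNA replication genes leaned downward. Of 38 genes 3 were lower and 0 higher (7.89% called, against 2.57% of all genes). A negative difference was found for 31, and the median was -0.35 against -0.01 for all genes. The called genes were the replicative helicase subunits Mcm7 (-0.88 ± 0.14, on a probe set with shared probes) and Mcm5 (-0.64 ± 0.12) and the thymidine kinase Tk1 (-0.51 ± 0.08). Their calls ended in 2, 3 and 1 of 4 fits (highest adjusted p 0.0631, 0.120 and 0.0652, without p50-/-IL10-/- array 2, array 1 and array 2). Mki67 read 9.10 and 9.73 against 9.10 and 8.93 and did not pass. The mean of the list was 7.30 and 7.47 on the IL10-/- arrays and 7.08 and 7.08 without p50.

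Single calls fell in most of the remaining lists, 4.76% to 7.69% of their measured genes, against 2.57% of all genes. A single call in a list of this size says little about the list. Tfrc, the transferrin receptor, was higher among 13 metal genes, at 10.64 and 10.51 against 11.36 and 11.43 (0.82 ± 0.10). Gclm, a subunit of the enzyme that starts glutathione synthesis, was the 1 lower gene of 20 Nrf2 targets (10.52 and 10.54 against 9.76 and 9.76, -0.77 ± 0.11). Socs3, a feedback inhibitor of cytokine receptors, was the 1 lower gene of 20 in the IL-10 and STAT3 list (-0.56 ± 0.08), and its call ended without p50-/-IL10-/- array 1 (0.0516). Properdin (Cfp, -0.70 ± 0.11) was lower among 18 efferocytosis and complement genes, Vegfa (-0.88 ± 0.15) among 21 glycolysis and hypoxia genes, and Dusp16 (0.63 ± 0.09) was higher among 17 phosphatases and decay factors. Each of the last 3 lost its call without p50-/-IL10-/- array 2 (0.0790, 0.126 and 0.0522), Cfp also without IL10-/- array 1 (0.0531) and Vegfa also without IL10-/- array 2 (0.115). Of 29 lysosomal genes 2 were higher, Acp5 and the protease Ctse (0.49 ± 0.09), whose difference was -0.0893 with the mean of its probe sets and whose call ended in 3 of 4 fits with an array left out (highest adjusted p 0.133, without p50-/-IL10-/- array 1). Chemokine receptors (17), cholesterol and fatty acid synthesis genes (25) and mitochondrial respiratory chain genes (28) had 0 calls, with medians of 0.00, -0.15 and 0.07.

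**Figure D4:**
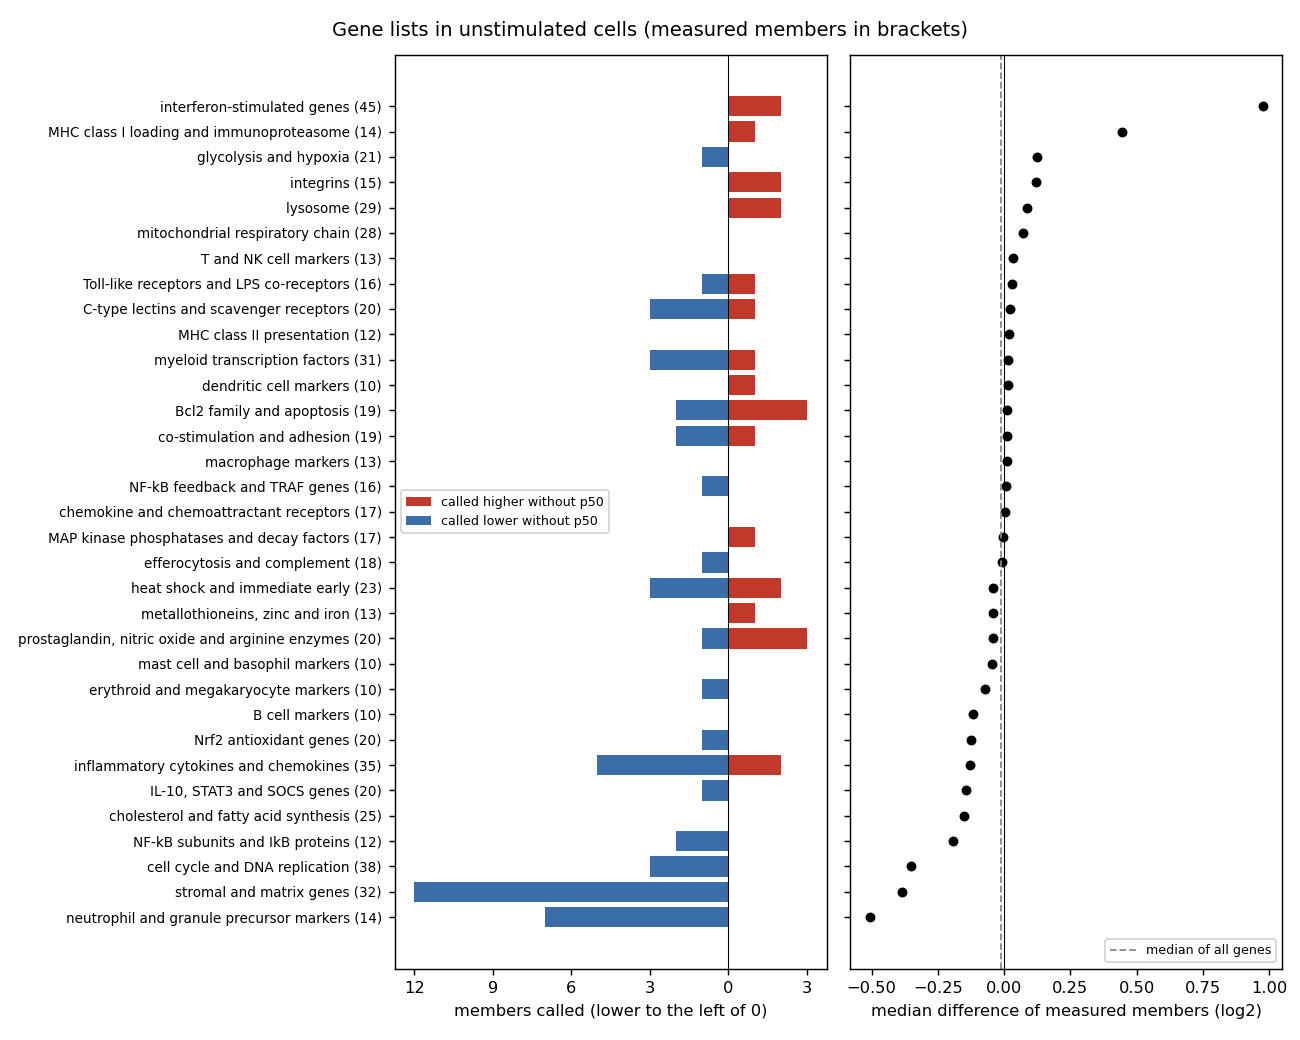
Members called higher (red, right of 0) and lower (blue, left of 0) without p50 in each of 33 gene lists (left panel, number of genes), and the median difference of all measured members (right panel, log2), with the median of all genes as a dashed line. Stromal (12) and neutrophil (7) lists hold the most decreases, and the interferon list has the highest median (0.98) with 2 calls. Over all genes 1.26% were called higher and 1.31% lower.

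The genotypes were also compared after LPS, and after LPS with IL-10, on the other 8 arrays. These give no resting level, but they enter the spread behind each resting call and the choice of probe set. With LPS 5.66% of all genes were higher and 6.72% lower without p50, and with LPS and IL-10 7.58% and 10.4%. Of the 156 genes higher in resting cells 112 (71.8%) were higher after LPS and 104 (66.7%) after LPS with IL-10, which are 16% and 11.1% of the genes higher there. Of the 162 lower genes 111 (68.5%) and 101 (62.3%) were lower there, which are 13.3% and 7.82% of the genes lower with those stimuli. Opposite calls were found for 3 genes with LPS alone and for 11 when IL-10 was added. The same call in all 3 conditions was made for 92 higher and 91 lower genes.

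Many of the largest differences of resting cells recurred in the stimulated cells. In IL10-/- cells the gaps between arrays 1 and 2 correlated across genes between the 3 conditions (0.398, 0.595 and 0.586). In p50-/-IL10-/- cells these correlations were 0.28, -0.344 and -0.492. Whether the recurrence is independent of the resting arrays was not tested. Gbp2b was higher by 7.27 ± 0.21 after LPS and by 7.51 ± 0.21 after LPS with IL-10, Gdpd3 by 4.58 ± 0.34 and 4.60 ± 0.34, and Itgax by 2.71 ± 0.35 and 2.88 ± 0.35. With these stimuli Thbs1 was lower (-2.36 ± 0.22 and -2.50 ± 0.22), and so were Ccn2 (-2.52 ± 0.21 and -2.49 ± 0.21), Tlr1 (-2.70 ± 0.28 and -3.01 ± 0.28) and Clec4n (-2.33 ± 0.11 and -2.28 ± 0.11). S100a9 was lower by differences of -0.96 ± 0.08 and -1.08 ± 0.08. The neutrophil list had 9 lower genes after LPS and 7 after LPS with IL-10 (medians -0.46 and -0.41), and the stromal list 13 and 11 (medians -0.32 and -0.21). Interferon-stimulated genes had 6 higher with LPS (median 0.80) and 34 with LPS and IL-10 (median 1.98). As in resting cells, the IL10-/- arrays were more uneven there, with 58 and 60 genes at least 1 log2 apart against 12 and 8 in p50-/-IL10-/- cells.

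**Figure D5:**
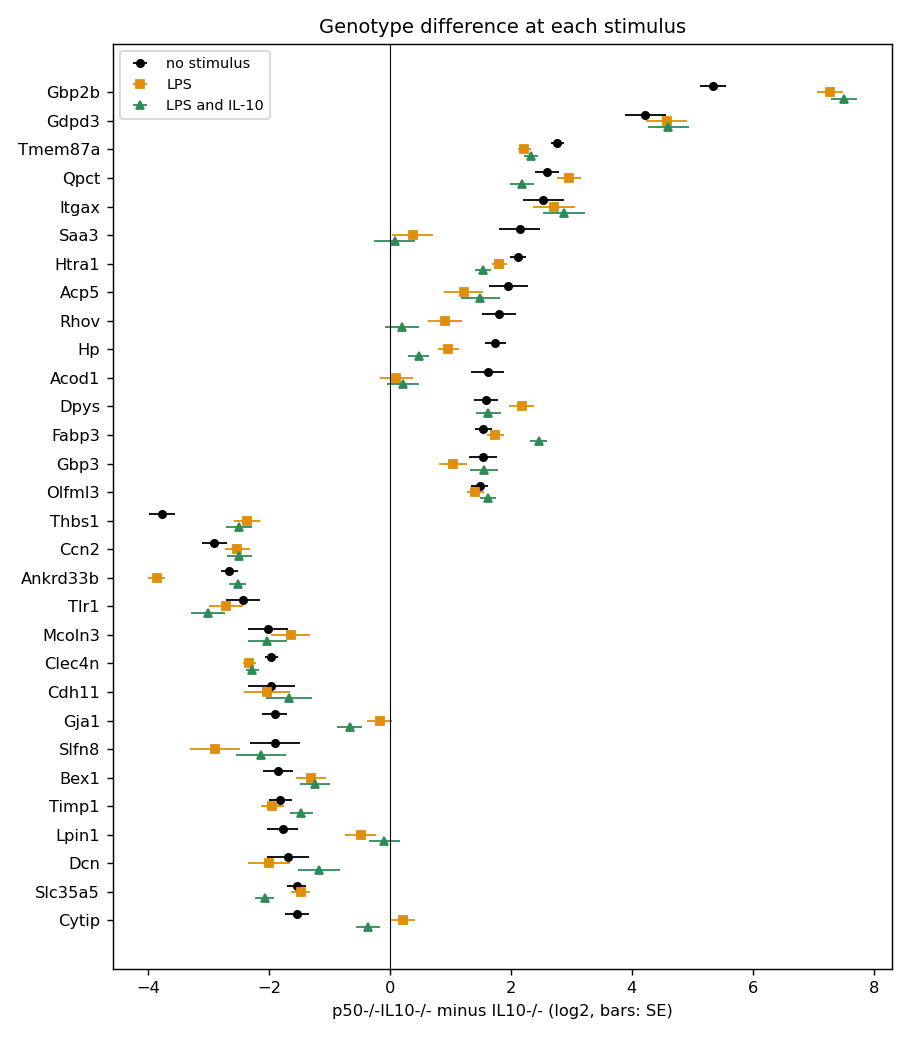
Difference between p50-/-IL10-/- and IL10-/- cells (log2, horizontal axis, bars are SE) without stimulus (black circles), with LPS (orange squares) and with LPS and IL-10 (green triangles) for the 15 largest called increases and 15 largest called decreases of resting cells. Most genes keep their side of 0 at a like size. Saa3 (2.15, 0.37 and 0.08), Acod1 (1.61, 0.11 and 0.22), Lpin1 (-1.77, -0.48 and -0.09) and Cytip (-1.54, 0.21 and -0.365) differ mainly without stimulus. Gja1 (-1.90, -0.17 and -0.66), Thbs1 (-3.77, -2.36 and -2.50) and Hp (1.74, 0.97 and 0.48) differ less with the stimuli. Rhov (1.80, 0.91 and 0.20) reads so too, but its resting difference minus the mean of the others did not pass (limma, adjusted p 0.106). The resting call of Rhov also ended without p50-/-IL10-/- array 2.

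Whether a genotype difference was particular to resting cells was tested directly, as the unstimulated difference minus the mean of the differences in both LPS groups. This interaction was called for 300 genes (2.42%), with a positive value in 122 (0.984%) and a negative one in 178 (1.44%), and for 42 of the 318 genes called in resting cells, of which 34 had the larger difference without stimulus. Of 73 genes called in resting cells alone, 28 passed. The resting difference that selected the 318 genes is part of this interaction, so the selection favours larger differences without stimulus. The 73 were also selected for lacking the same call with either stimulus. These shares are therefore a description and cannot show how many differences are particular to resting cells. Among the named genes called at rest, Nfkbie had the lowest adjusted p of the interaction. It was lower without stimulus (-1.09 ± 0.13) and at 0.27 ± 0.13 after LPS and 0.32 ± 0.13 after LPS with IL-10, an interaction of -1.39 ± 0.16 (adjusted p 0.00221). With LPS its levels were 10.11 and 9.99 in IL10-/- and 10.36 and 10.29 in p50-/-IL10-/- cells, so a gap of about 1 log2 in resting cells was not present after stimulation. Clec4e differed by 1.07 ± 0.08 without stimulus and by 0.16 ± 0.08 and 0.36 ± 0.08 with the stimuli (0.81 ± 0.10, adjusted p 0.00333). With LPS it read 13.03 and 13.05 against 13.24 and 13.17, and array maxima were 14.17 to 14.22. Whether levels near the top of the scale limit such differences was not tested. Gbp2b differed less without stimulus than with either (-2.05 ± 0.26), from dim control levels in all conditions.

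Other genes had a larger difference in the stimulated cells and none that passed in resting cells. Med21, a subunit of the Mediator complex, read 7.31 and 7.14 against 7.43 and 7.53 at rest, and 7.61 and 8.10 against 10.63 and 10.29 with LPS, an interaction of -2.26 ± 0.20 (adjusted p 0.00112). Rbl1, the cell cycle repressor p107, had one of -1.88 ± 0.27, and its other probe set had the opposite sign at rest. Tor4a, a torsin family ATPase, had one of 1.60 ± 0.17, as it read 10.36 and 10.24 against 10.01 and 9.87 at rest and 9.71 and 9.67 against 7.41 and 7.67 with LPS. These 3 genes, Nfkbie, Clec4e and Gbp2b were the 6 of 24 named interaction calls that were kept whichever of the 12 arrays was left out. The count of 300 depended on single arrays and ran from 72, without unstimulated p50-/-IL10-/- array 1, to 554, without IL10-/- LPS array 1.

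The targeted gene lies on chromosome 3. Of the 20 annotated protein-coding genes on either side of Nfkb1, 25 were measured and 0 were called. With 2.57% of all genes called, 0 of 25 says little. In wider windows, chosen after seeing the data, 7.69% of 65 measured genes were called within 50 genes and 8.27% of 133 within 100. Gbp7, Gbp3 and Gbp2b lie on the same chromosome, outside the window of 20 genes. Whether their place near the targeted gene bears on their differences was not tested.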

How the data were processed

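RNA of 12 samples (6 groups of 2) was measured on Affymetrix mouse arrays, 1 array per sample. Values are the deposited log2 expression values of the series table, which the authors made with RMA (background correction, quantile normalization and probe set summary), and limma is also listed, per the submitters' processing notes. Quantile normalization gives arrays one distribution, so a shift of all genes cannot be seen. Arrays give no read depth: their number limits the precision, and the median SE of a difference was 0.0998 log2. Of 22690 probe sets, 64 controls, 691 with several gene symbols and 1555 with none were left out, and the 20380 with 1 symbol gave 12393 genes. Symbols came from the platform annotation.

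Group means over all 12 arrays were fitted with lmFit and eBayes in limma 3.58.1 (R 4.3.3), with 6 residual degrees of freedom, and the fit was tested on simulated data. Named genes were the 15 largest called differences in each direction and the 8 largest in the interaction, all without overlap and with the brighter group not dim. Up to 3 called members of each list and direction, the NF-kB subunits and IkB proteins, and called neighbours of Nfkb1 were also named, and others are examples from the lists. Members and lists were chosen with earlier results of these data known. Alternatives changed the arrays fitted, the centring, the filter on dim genes, the probe set rule, the spread model, the pairing and each array in turn.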

Additional observations from a re-analysis of the deposited data

Results flagged for a closer look

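For 24 named genes the genotype difference in resting cells differed from its mean over both LPS groups, by the interaction in limma at an adjusted p under 0.05 (n = 2 arrays per group). Values below are that interaction in log2, the resting difference minus the mean of the others. Genes named for their resting difference lean toward larger values at rest by that choice, since the same difference is part of the interaction.

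Increases larger in resting cells were those of Saa3 (1.92), Hp (1.02), Acod1 (1.45), Clec4e (0.81) and the transferrin receptor Tfrc (0.56). With LPS, Saa3 read 12.93 and 12.90 against 13.28 and 13.30, and Acod1 13.65 and 13.71 against 13.77 and 13.80. Array maxima were 14.17 to 14.22, and whether the top of the scale limits the stimulated differences of Saa3, Acod1 and Clec4e was not tested. Decreases larger in resting cells were those of Thbs1 (-1.34), Gja1 (-1.49), Lpin1 (-1.49), Cytip (-1.46), Nfkbie (-1.39), Birc3 (-0.69), Nr4a1 (-0.94), Pmaip1 (-0.70) and Socs3 (-0.64). Ptgs2 had a negative interaction too (-1.22), but its decrease after LPS alone (-0.86 ± 0.18) was of like size to that at rest (-1.04 ± 0.18). Socs3 and Ptgs2 were called higher without p50 after LPS with IL-10 (0.42 ± 0.08 and 1.22 ± 0.18), the opposite of their direction at rest.

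Resting differences were smaller for Gbp2b (-2.05), Cebpd (0.77) and Fos (1.62). Fos was lower by differences of -2.92 ± 0.23 after LPS and -2.43 ± 0.23 when IL-10 was added. Genes with an interaction and no call at rest were Relb (-0.66), Med21 (-2.26), Rbl1 (-1.88), Tor4a (1.60), the prostaglandin receptor Ptger2 (1.69) and the cytokine Il1a (-1.54).

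The call held whichever of the 12 arrays was left out for 6 of the 24, namely Gbp2b, Nfkbie, Clec4e, Med21, Rbl1 and Tor4a. Saa3, Acod1, Tfrc, Pmaip1, Hp and Lpin1 lost it in 8 to 10 of the 12 fits, with a highest adjusted p of 0.205.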

How the results depend on the processing

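With 2 arrays per group the counts rest on single arrays. Leaving out each in turn gave 101 to 244 called genes in place of 318 (47 to 115 higher, 54 to 129 lower). For the interaction, in place of 300, it gave 118 and 100 without unstimulated IL10-/- arrays 1 and 2, 72 and 90 without unstimulated p50-/-IL10-/- arrays 1 and 2, 554 without IL10-/- LPS array 1 and 179 without p50-/-IL10-/- LPS array 1. It gave 195 without IL10-/- LPS and IL-10 array 2, and 186 and 154 without p50-/-IL10-/- LPS and IL-10 arrays 1 and 2. Higher interferon-stimulated genes numbered 1 to 14, lower stromal genes 4 to 13, and the neutrophil median ran from -0.60 to -0.49.

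Other settings moved the count of called genes less: 288 with the 4 unstimulated arrays alone (231 shared with the 318), 332 with arrays centred (313), 328 with dim genes left out (309), 300 with the mean of probe sets (233) and 309 with a trend in spread (303). Of 78 named calls 16 ended with the 4 arrays alone and 11 with the mean of probe sets, those of Il1rn, Cxcl1, Cd47, Cd86, Itga5, Ctse, Jun, Bak1, Cflar, Arg2 and Ptgs2. Of 78 named called genes 38 kept the call in each alternative. The lysosomal protease Ctse reversed with the mean of its probe sets, to -0.0893 (adjusted p 0.877).

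Replicate numbers are shared between groups, but no label says that they pair samples. Deviations of same-numbered unstimulated arrays correlated at 0.204 across genes. All 10 pairs among 5 of the groups were positive (0.169 to 0.595), while those of p50-/-IL10-/- LPS and IL-10 arrays correlated negatively with the other 5 groups (-0.173 to -0.492). With a replicate block 387 genes were called, 314 in the interaction and 9 interferon-stimulated genes. With the numbers of that group crossed, an alternative chosen after seeing the data, the block gave 621 and 561.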

Other observations

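Calls around the targeted gene on chromosome 3 were counted in nested windows, of which those beyond 20 genes were chosen after seeing the data, and the shares were not tested against each other. Within 20 protein-coding genes on either side of Nfkb1, 0 of 25 measured genes were called. Within 50 it was 4 higher and 1 lower of 65 (7.69%), within 100 8 and 3 of 133 (8.27%), and within 200 10 and 5 of 206 (7.28%). More than 200 genes before Nfkb1 it was 2 and 5 of 414 (1.69%), and over all genes 2.57%. Besides Gbp2b, Gbp3 and Gbp7 the genes within 200 include Extl2, a glycosyltransferase (1.01), and Wls, the carrier of Wnt proteins (0.67). The lower ones include Chil3, the chitinase-like protein of macrophages, which read 9.75 and 9.50 in IL10-/- and 8.46 and 8.42 in p50-/-IL10-/- cells (-1.18 ± 0.10, adjusted p 0.000258). Extl2, Wls and Chil3 kept their calls with any of the 4 unstimulated arrays left out, as did Gbp2b, Gbp7 and Gclm. Slc30a7, Eif4e and Rpf1 lost theirs in 4 of 4 such fits (highest adjusted p 0.143, 0.256 and 0.143), Bcar3, Pdlim5, Csf1 and Mcoln3 in 3 (0.242, 0.126, 0.208 and 0.0676) and Gbp3 in 1 (0.0628).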
